A study of Homo sapiens with 24 samples.

Results

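Genomic imprinting is the expression of a gene from only the maternal or only the paternal chromosome, set by DNA methylation marks laid down in the germ cells. Imprinted genes sit in clusters that share control regions, and paternally and maternally expressed neighbours are often found side by side, in some clusters on opposite strands. Many of them act on growth, placental development and the development of the brain, and their marks are known to be unstable in cultured pluripotent stem cells. Described here are 10 genes of 6 imprinted loci, DLK1, MEG3, PEG10, SGCE, NNAT, BLCAP, MEST, PEG3, H19 and IGF2, chosen by name as rows of the count tables and present among 61248 features in each table. The tables hold no allele-specific counts, so levels are given for both chromosomes together.

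The cells were H7, an established human embryonic stem cell line, in 2 control lines and 2 lines in which BRAT1 was knocked out. BRAT1 is a partner of the Integrator complex, which cleaves nascent RNA. Each line was sampled at day 0 as undifferentiated stem cells and at day 14 as neural progenitors of a ventral differentiation, with 3 biological replicates lettered A to C. Each genotype and day therefore has n = 6 libraries from 2 lines, which gives 24 libraries, and how the lines were derived and whether each is 1 clone is not given in the sources used here. In bulk RNA, fewer cells of a type and less RNA per cell cannot be told apart.

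Libraries held 1407832 to 2143871 counts at day 0 and 2228736 to 3726227 at day 14, and levels are given as CPM, counts per 1000000 counts of the library. Counts under BRAT1 checked the labels at day 14, with 414 to 1077 in control libraries and 21 to 262 in knockout libraries (log2 fold change -2.47, SE 0.57, edgeR adjusted p = 0.0111), but BRAT1 had at most 10 counts in any day 0 library. The knockout lines were far apart in it at day 14, with 30, 21 and 63 counts in line 1 (11.9 ± 4.67 CPM) and 248, 227 and 262 in line 2 (80.4 ± 8.18 CPM, SD, n = 3), and higher in line 2 by edgeR (adjusted p = 1.09e-09). Both lay below the control lines, at 263 ± 15.8 and 241 ± 68.3 CPM. Of 9 neural progenitor marker genes 7 were tested between days in controls. Of these, 6 were higher at day 14 and 0 lower, against 28.4% higher and 14.4% lower of all features. Their summed level was 272 to 487 CPM in day 14 controls and 28.2 to 124 CPM in day 0 controls. Of 8 stem cell markers 6 were tested, and 3 were lower at day 14 and 1, LIN28A, higher. Their summed level overlapped between days, at 50.4 to 138 CPM in day 0 controls and 55.2 to 117 CPM in day 14 controls. The strand of the counts matters for imprinted loci: of 2970 pairs of a coding gene and a noncoding feature overlapping it on the other strand by at least 100 bp of exon, with at least 100 counts, 1961 (66.0%) had more counts under the noncoding feature. The antisense feature TALAM1 held 1681885 counts in the 6 control libraries of day 14, against 1020 under MALAT1 opposite it. This pair is named here after its values were seen. Counts under a name may therefore belong to RNA of the other strand, and each gene is given below beside what lies opposite it. Levels below are of counts under a name, and which strand they come from was not tested.

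The positions are those of GENCODE release 29 on GRCh38. Of the 61248 features 57029 were matched to it, so an unmatched feature opposite a gene would be missed here and below. DLK1 (chr14:100725705-100738224, plus strand) has no annotated feature opposite it. The strand of its counts could therefore not be checked here. MEG3 (chr14:100779410-100861031, plus strand) lies opposite ENSG00000258663, with 289 bp of shared exon and 26 counts over all libraries, and overlaps MIR493HG on its own strand. PEG10 (chr7:94656325-94669695, plus strand) and SGCE (chr7:94524204-94656572, minus strand) run away from each other and share 219 bp of exon at their starts. NNAT (chr20:37521206-37523693, plus strand) lies within BLCAP (chr20:37492472-37527931, minus strand), with 85 bp of shared exon.

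MEST (chr7:130486171-130506465, plus strand) has 3 matched features with counts on the other strand. They are MESTIT1 at its start (484 bp of shared exon), ENSG00000270823 in its middle (chr7:130495794-130498427, 602 bp) and the end of COPG2 (228 bp). ENSG00000270823 held 38357 counts over the 24 libraries, against 1870 under MEST. PEG3 (chr19:56810077-56840728, minus strand), H19 (chr11:1995176-2001470, minus strand) and IGF2 (chr11:2129112-2149603, minus strand) complete the set. IGF2-AS lies opposite IGF2, and 2 short annotated RNAs, ENSG00000275266 and ENSG00000274866, lie opposite H19.

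The stretches of MEST that ENSG00000270823 covers are shown because reads from them can be assigned to either name, depending on the strand setting. Of the MEST coding sequence, 304 bases in 4 exons lie under that feature. The 3 longer pieces are exons 3, 4 and 5, at chr7:130497156-130497235, chr7:130497936-130498013 and chr7:130498139-130498275, of 80, 78 and 137 bases. They are given on the plus strand of GRCh38 from the GENCODE release 29 transcript, in lower case throughout.
MEST exon 3: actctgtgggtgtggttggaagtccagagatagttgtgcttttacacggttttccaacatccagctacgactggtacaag
MEST exon 4: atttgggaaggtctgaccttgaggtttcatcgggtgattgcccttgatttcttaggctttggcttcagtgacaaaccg
MEST exon 5: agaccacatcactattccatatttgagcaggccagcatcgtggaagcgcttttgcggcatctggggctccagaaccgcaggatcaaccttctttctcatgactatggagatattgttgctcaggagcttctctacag

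A promoter window across a RefSeq transcript start on GRCh38.p14 was found for 4 of the 10 genes. The MEG3 window at chr14:100825858-100826157 (plus strand) is shown because MEG3 and its neighbour DLK1 were both higher in knockouts at day 14. The capitals mark TGACGTCA, the cyclic AMP response element, and TATAAA, the TATA box. TGACGTCA, which reads the same on both strands, was found in 1.85% of 35116 such windows, and TATAAA on either strand in 11.5%. The MEG3 window holds 19 CG pairs, against a median of 14.
MEG3 promoter: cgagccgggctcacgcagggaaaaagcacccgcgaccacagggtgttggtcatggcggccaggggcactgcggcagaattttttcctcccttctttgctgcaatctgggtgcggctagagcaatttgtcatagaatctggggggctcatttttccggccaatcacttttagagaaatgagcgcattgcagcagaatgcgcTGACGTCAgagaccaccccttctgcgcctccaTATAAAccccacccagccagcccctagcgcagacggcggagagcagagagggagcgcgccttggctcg

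The first comparison asked which of these genes differed between BRAT1 knockout and control progenitors at day 14. DLK1, MEG3, PEG10, NNAT and SGCE rose in knockouts, IGF2 fell, BLCAP and MEST did not pass the test, and PEG3 and H19 had too few counts to be tested. Of the 8 genes that passed the filter on low counts, 5 were higher and 1 lower (edgeR quasi-likelihood test, adjusted p under 0.05). Of all 11408 features tested, 21.7% were called, 11.0% higher and 10.7% lower. The median log2 fold change of the 8 genes was 0.87, against 0.07 over all features. The genes were chosen with earlier results of these data known, so setting them against all features is a description only.

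In that test the 3 libraries of a line count as separate samples, and with 2 lines against 2 an exact test over lines could not go below p = 0.333. With counts summed per line, so that each line is 1 value, edgeR called 4 of the genes, DLK1, PEG10, NNAT and IGF2. SGCE then had an adjusted p of 0.105 and MEG3 of 0.157. All 24 libraries in 1 fit gave a larger estimate of spread (common coefficient of variation 0.71, not 0.383). In that fit 0 of the 7 genes tested were called, and the lowest edgeR adjusted p was 0.0628, that of SGCE. IGF2 did not pass its filter and was not tested there. With a ratio of counts on opposite strands as a covariate, the rises of MEG3 and NNAT did not pass. With a stricter form of it neither did those of DLK1 and PEG10, as described after the genes.

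The 2 genes of the chromosome 14 cluster, the paternally expressed DLK1 and the maternally expressed MEG3, were both higher in knockouts. DLK1 encodes a membrane protein related to the Notch ligands. Control line 1 gave 211, 158 and 198 DLK1 counts in replicates A, B and C, and control line 2 gave 193, 175 and 82. Knockout line 1 gave 233, 216 and 560, and knockout line 2 gave 384, 318 and 505. In CPM, every knockout library (78.8 to 161 CPM) lay above every control library (36.8 to 63.9 CPM), and the highest were replicate C of each knockout line. Controls averaged 52.0 ± 9.03 CPM and knockouts 118 ± 34.6 CPM (SD, n = 6 each), for a log2 fold change of 1.15 (SE 0.17, edgeR adjusted p = 1.47e-05).

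MEG3 is a long noncoding RNA. Control line 1 gave 41, 20 and 16 counts, control line 2 gave 18, 21 and 11, knockout line 1 gave 30, 20 and 51, and knockout line 2 gave 53, 39 and 68. The groups overlapped, since replicate A of control line 1 (11.1 CPM) lay above replicate B of knockout line 1 (7.30 CPM), and knockout line 2 held 3 of the 4 highest levels. The change on the log2 scale was 1.09 (SE 0.35, edgeR adjusted p = 0.0251), with means of 6.44 ± 2.38 and 14.1 ± 5.20 CPM (SD, n = 6). That call was lost in 15 of 27 other settings, among them without replicate B or C of control line 1, A or C of control line 2, or A or C of knockout line 2 (adjusted p up to 0.0697).

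MIR493HG, the host transcript of microRNAs of the same cluster, overlaps MEG3 on its strand. Its means were 40.1 ± 6.35 CPM (control) and 40.0 ± 8.52 CPM (knockout; SD, n = 6, log2 fold change -0.02, SE 0.20, edgeR adjusted p = 0.957). ENSG00000258663, opposite MEG3, held 25 counts in controls and 1 in knockouts at day 14, a pooled ratio of 0.0420 (95% counting interval 0.00102 to 0.256). Counting intervals here and below cover counting error only, not the spread between libraries or lines. The ratio of DLK1 to MEG3 within a library differed by 0.08 on the log2 scale between genotypes (exact two-sided permutation p = 0.742 over libraries, adjusted p = 0.742 over 3 ratios).

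IGF2, a growth factor of fetal tissues expressed from the paternal chromosome, was the 1 gene of the set that was lower in knockouts. Control line 1 gave 39, 30 and 23 IGF2 counts, and control line 2 gave 45, 20 and 8. Knockout line 1 gave 2, 0 and 11, and knockout line 2 gave 13, 7 and 3. Replicate C of control line 2, at 3.59 CPM, lay below replicate A of knockout line 2, at 4.55 CPM, and the other control libraries lay above every knockout library. Control libraries averaged 8.20 ± 3.20 CPM and knockout libraries 1.90 ± 1.68 CPM (SD, n = 6 each), for a log2 fold change of -2.13 (SE 0.57, edgeR adjusted p = 0.00838). Without control line 1 the adjusted p was 0.106, the 1 of 26 settings in which this call was lost.

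H19, the maternally expressed noncoding RNA beside IGF2, had 0 counts in all 24 libraries, so no ratio of the 2 genes could be formed. A count of 0 over the 6 control libraries of day 14 allows up to 0.156 CPM under that name. This limit, from 3 counts, covers counting error only. It does not show that H19 RNA was absent, since its reads may be counted under features of the other strand. The short feature ENSG00000275266, opposite H19, had counts of 24, 23 and 10 (control line 1), 8, 19 and 12 (control line 2), 0, 5 and 11 (knockout line 1), and 4, 2 and 0 (knockout line 2). Its pooled ratio of knockout to control was 0.240 (95% counting interval 0.144 to 0.385), and it did not pass the filter for the test. IGF2-AS, opposite IGF2, had 10 counts in controls, from 3 of the 6 libraries, and 0 in knockouts at day 14. Against a floor of 3 counts this is 3.18-fold lower, a value that takes the 10 counts as exact and is no bound on the genotype difference.

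PEG10, a gene derived from a retrotransposon and needed for the placenta, and SGCE, which encodes epsilon-sarcoglycan of the membrane, are paternally expressed from a shared control region. For PEG10, control line 1 gave 211, 186 and 178 counts, control line 2 gave 262, 196 and 60, knockout line 1 gave 236, 274 and 628, and knockout line 2 gave 303, 333 and 449. Every knockout library (87.8 to 169 CPM) lay above every control library (26.9 to 71.5 CPM), with replicate C of control line 2 the lowest. PEG10 averaged 54.9 ± 14.8 CPM in control and 118 ± 30.8 CPM in knockout libraries (SD, n = 6 each), for a log2 fold change of 1.08 (SE 0.18, edgeR adjusted p = 8.78e-05).

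SGCE had far more counts. Control line 1 gave 3258, 2808 and 2704, and control line 2 gave 3577, 3161 and 1850. Knockout line 1 gave 5022, 5593 and 6097, and knockout line 2 gave 3739, 3755 and 3390. The control lines were alike and the knockout lines were not, with line 1 at 1636 to 2040 CPM and line 2 at 1078 to 1308 CPM, above control libraries at 830 to 976 CPM. The change on the log2 scale was 0.76 (SE 0.14, edgeR adjusted p = 0.000356), and it was 0.33 (adjusted p = 0.0386) without knockout line 1 and 1.04 without knockout line 2. PEG10 amounted to 6.08 ± 1.44% of the SGCE counts in controls and 8.35 ± 3.27% in knockouts (SD, n = 6), a difference of 0.40 on the log2 scale (exact two-sided permutation p = 0.21, adjusted p = 0.315 over 3 ratios).

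NNAT, paternally expressed and encoding a small membrane protein of the endoplasmic reticulum, lies inside BLCAP, which is expressed from both chromosomes in most tissues. For NNAT, control line 1 gave 310, 202 and 243 counts, control line 2 gave 265, 265 and 89, knockout line 1 gave 315, 252 and 756, and knockout line 2 gave 443, 361 and 509. The knockout libraries (91.9 to 203 CPM) lay above the control libraries (39.9 to 84.2 CPM). NNAT averaged 69.4 ± 16.0 CPM in control and 140 ± 40.5 CPM in knockout libraries (SD, n = 6 each), for a log2 fold change of 0.98 (SE 0.17, edgeR adjusted p = 0.000143).

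For BLCAP, control line 1 gave 1119, 1155 and 1015 counts, control line 2 gave 1442, 1304 and 993, knockout line 1 gave 1414, 1503 and 1599, and knockout line 2 gave 1266, 1052 and 1210. The genotypes overlapped, with the 2 highest levels in replicates A and B of knockout line 1 and the lowest in replicate A of control line 1. The change on the log2 scale was 0.26 (SE 0.14, edgeR adjusted p = 0.202), which is 0.44 (adjusted p = 0.0406) without knockout line 2 and -0.02 (adjusted p = 0.947) without knockout line 1. NNAT amounted to 19.5 ± 6.39% of the BLCAP counts in controls and 32.9 ± 11.6% in knockouts (SD, n = 6), a difference of 0.75 on the log2 scale (exact two-sided permutation p = 0.0433, adjusted p = 0.13 over 3 ratios).

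MEST, paternally expressed and named for its expression in mesoderm, encodes an enzyme of the alpha/beta hydrolase fold. Here control line 1 gave 113, 76 and 88 counts, control line 2 gave 104, 112 and 30, knockout line 1 gave 66, 70 and 230, and knockout line 2 gave 133, 95 and 94. Replicate C of knockout line 1 (61.7 CPM) and replicate A of knockout line 2 (46.5 CPM) lay above every control library, and the other 4 knockout libraries lay within the range of the controls. The means were 26.3 ± 6.97 and 36.3 ± 14.8 CPM (SD, n = 6), with a log2 fold change of 0.43 (SE 0.24, edgeR adjusted p = 0.216, interval of 2 SE from -0.06 to 0.91).

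The features opposite MEST did not move as 1 group. ENSG00000270823 rose, from 697 ± 74.8 to 1118 ± 292 CPM (SD, n = 6, log2 fold change 0.68, SE 0.15, edgeR adjusted p = 0.00133). Its counts ran from 1902 to 2410 (control line 1), 1463 to 2788 (control line 2), 3617 to 5018 (knockout line 1) and 2458 to 2800 (knockout line 2). Its call was lost in 4 of 27 settings. Among them were those without knockout line 1 (edgeR adjusted p = 0.196) and without control line 1 (log2 0.54, edgeR adjusted p = 0.0748). COPG2, a subunit of the coat of transport vesicles, rose, and was higher in both knockout lines, from 139 ± 21.1 to 326 ± 35.7 CPM (SD, n = 6, log2 fold change 1.23, SE 0.14, edgeR adjusted p = 2.29e-07). MESTIT1, a paternally expressed antisense RNA, fell from 41.1 ± 4.73 to 25.1 ± 11.0 CPM (SD, n = 6, log2 fold change -0.74, SE 0.25, edgeR adjusted p = 0.0358), and did not pass in 12 of 27 settings.

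PEG3, a paternally expressed zinc finger gene, had 12 counts in all. At day 14 control line 1 gave 2, 0 and 1 of them, control line 2 none, knockout line 1 gave 7, 0 and 0, and knockout line 2 gave 2, 0 and 0. The counts were too few to compare the genotypes, with a pooled ratio of 3.15 (95% counting interval 0.786 to 18.1).

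**Figure D1:**
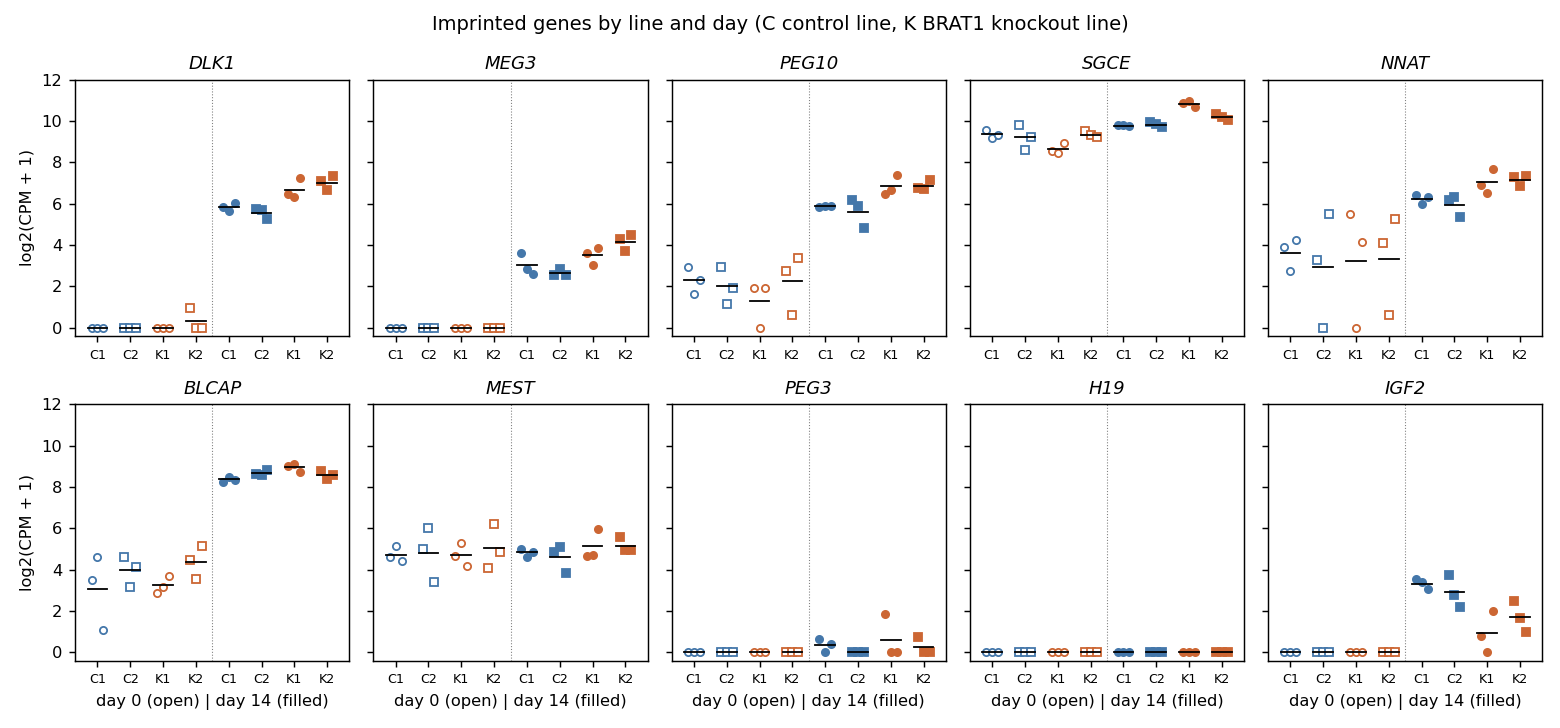
Level of each of the 10 genes in every library, as log2(CPM + 1) with each library's own total, by control line (C1, C2) and BRAT1 knockout line (K1, K2), with open symbols for day 0 and filled symbols for day 14. Each symbol is 1 library and each black bar the mean of 3. At day 14 the knockout symbols of DLK1, PEG10, SGCE and NNAT lie above all control symbols, IGF2 is lower in knockouts, and H19 is at 0 throughout.

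A ratio of counts on opposite strands moved with genotype beside these results. How much of it is technical and how much is RNA of both strands in the cells was not tested. The wrong-strand percent of a library is taken here as the counts under 571 coding genes as a percent of those under a much more abundant noncoding feature opposite each, and no gene of the set enters it. At day 14 it averaged 2.72 ± 0.34 for control and 3.87 ± 0.925 for knockout libraries (SD, n = 6, exact two-sided permutation p = 0.0195). This permutation takes the 3 libraries of a line as separate samples, and over lines it could not go below p = 0.333. The percent was highest in replicate C of knockout line 1 (4.97) and of knockout line 2 (4.91), and lowest in replicate C of control line 2 (2.12). The same 2 libraries held the highest levels of DLK1, PEG10 and NNAT, and the same control library the lowest.

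With this percent as a covariate, DLK1 (log2 0.67, edgeR adjusted p = 0.0122) and PEG10 (0.64, 0.0291) passed. NNAT (0.50, 0.0632) and MEG3 (0.57, 0.46) did not. SGCE was at 1.06 and IGF2 at -3.18, both past the threshold, and BLCAP passed at 0.62 (adjusted p = 0.00298), while MEST was at -0.14. A stricter percent, from the 201 pairs in which the noncoding feature held at least 50 times the counts of the coding gene, was chosen after seeing the data, and averaged 0.962 ± 0.0952 for control and 1.38 ± 0.234 for knockout libraries (SD, n = 6, exact two-sided permutation p = 0.00216). With it as the covariate DLK1 (0.51, edgeR adjusted p = 0.163), PEG10 (0.50, 0.224), NNAT (0.33, 0.384) and MEG3 (0.42, 0.703) did not pass, and SGCE (1.21), BLCAP (0.77) and IGF2 (-3.92) did.

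Both percents moved with genotype, so a covariate can also take up part of a genotype difference, and the part of the wrong-strand percent in these results was not tested beyond these fits. Leaving out the 4 knockout libraries that exceeded all controls in the first percent, an alternative also added after seeing the data, kept 2 libraries of knockout line 1. DLK1 (0.73, edgeR adjusted p = 0.0211), PEG10 (0.82, 0.018), NNAT (0.65, 0.0444), SGCE (1.18) and IGF2 (-4.28) passed in that fit, BLCAP (0.59) passed as well, and MEG3 (0.57, 0.544) did not. Neural progenitor markers also moved with genotype. Their summed level was 272 to 487 CPM in controls and 584 to 1119 CPM in knockouts. Of 7 tested of 9, 4 were higher in knockouts and 0 lower, against 11.0% higher and 10.7% lower of all features. Neuron markers moved as well, at 8.08 to 32.6 CPM summed in controls and 37.2 to 101 CPM in knockouts, without overlap. Of 5 neuron markers 3 were tested, and 2, DCX and STMN2, were higher and 0 lower, against the same shares of all features. Summed mesenchyme and fibroblast markers were at 12.1 to 36.4 and 12.7 to 31.5 CPM, with 0 called of 4 tested of 9. Of the stem cell, endoderm and trophoblast markers 0 were called, with 5, 1 and 1 tested. The part of cell makeup in these results was not tested.

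**Figure D2:**
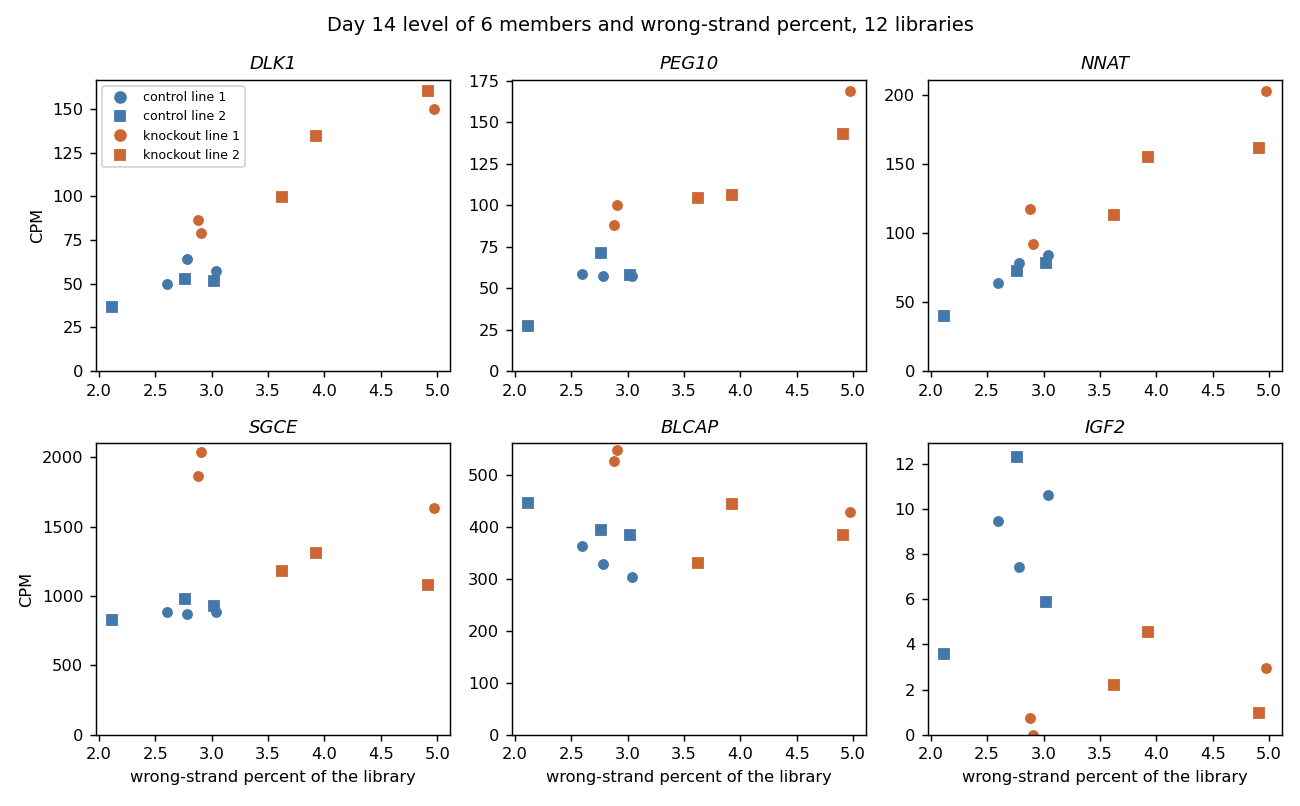
CPM of DLK1, PEG10, NNAT, SGCE, BLCAP and IGF2 in the 12 libraries of day 14 against the wrong-strand percent of each library, with circles for line 1, squares for line 2, blue for control and orange for knockout. DLK1, PEG10 and NNAT are highest in the 2 libraries with a percent of 4.91 and 4.97, while SGCE and BLCAP are highest in 2 knockout libraries with a percent within the control range.

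**Figure D3:**
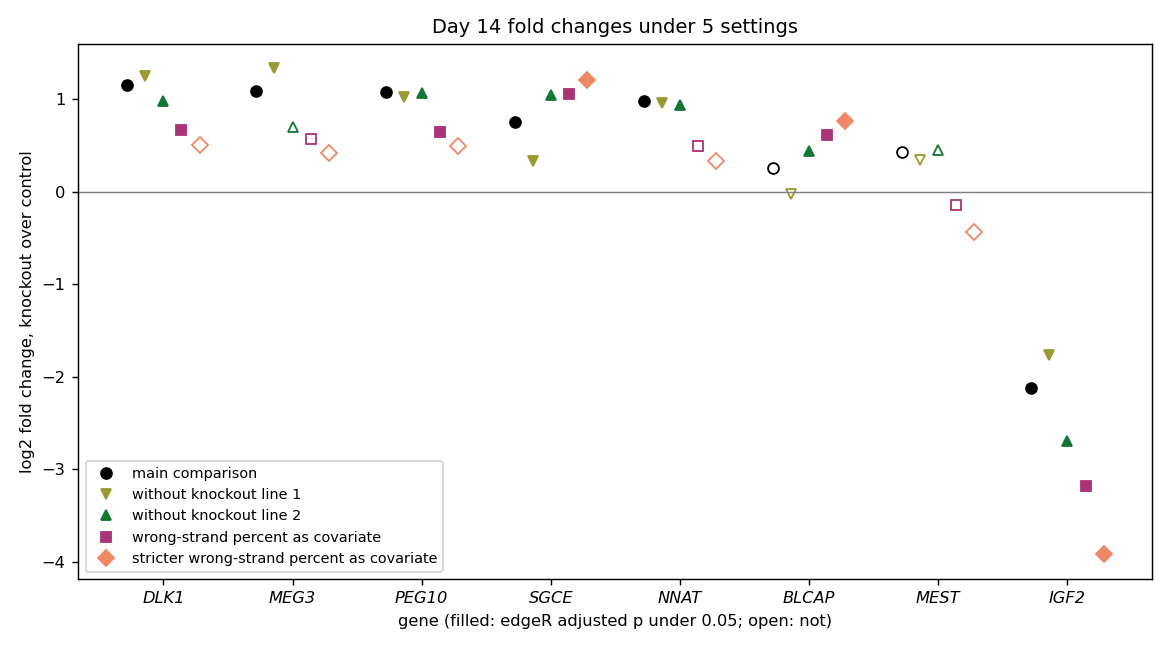
Log2 fold change of knockout over control at day 14 for the 8 genes tested, in the main comparison, without each knockout line, and with the wrong-strand percent or its stricter form as a covariate. Filled symbols passed at an edgeR adjusted p under 0.05. DLK1, PEG10, NNAT and MEG3 are smaller with either covariate, and SGCE, BLCAP and IGF2 are farther from 0.

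The lines of a genotype served as a background. Between the 2 control lines at day 14, 0 of the 8 genes were called by edgeR and 16 of 15000 features (0.107%, with 0.0933% higher and 0.0133% lower in line 2), with 0 of the 8 at an unadjusted p under 0.05 and 0 called by DESeq2. Between the 2 knockout lines, 1 of the 8 genes was called against 1.23% of all features, 0.827% higher and 0.400% lower. That was SGCE, lower in line 2 by -0.69 (log2, SE 0.15, edgeR adjusted p = 0.00925), a call lost on leaving out replicate A or B of line 1 or replicate C of line 2. BLCAP was at -0.44 (adjusted p = 0.234) between the same lines. ENSG00000270823 was lower in line 2 by -0.74 (adjusted p = 0.00272).

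The genes most like the 3 members with the highest mean CPM at day 14 were sought over the 12 libraries of that day, by Pearson correlation of log2(CPM + 1) among 4297 features. These libraries share genotype, line, depth and wrong-strand percent, and the values are descriptions. The feature most like SGCE was ENSG00000270823 (r = 0.962), opposite MEST on the same chromosome, followed by ENSG00000230532 (0.960) and ENSG00000279945 (0.947). Those most like BLCAP were UBE2D4 (0.910), ENSG00000232640 (0.897) and ENSG00000259370 (0.896). Those most like NNAT were CAMK2N1 (0.976), AMOT (0.970) and DLK1 (0.966), which is a member of the set.

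**Figure D4:**
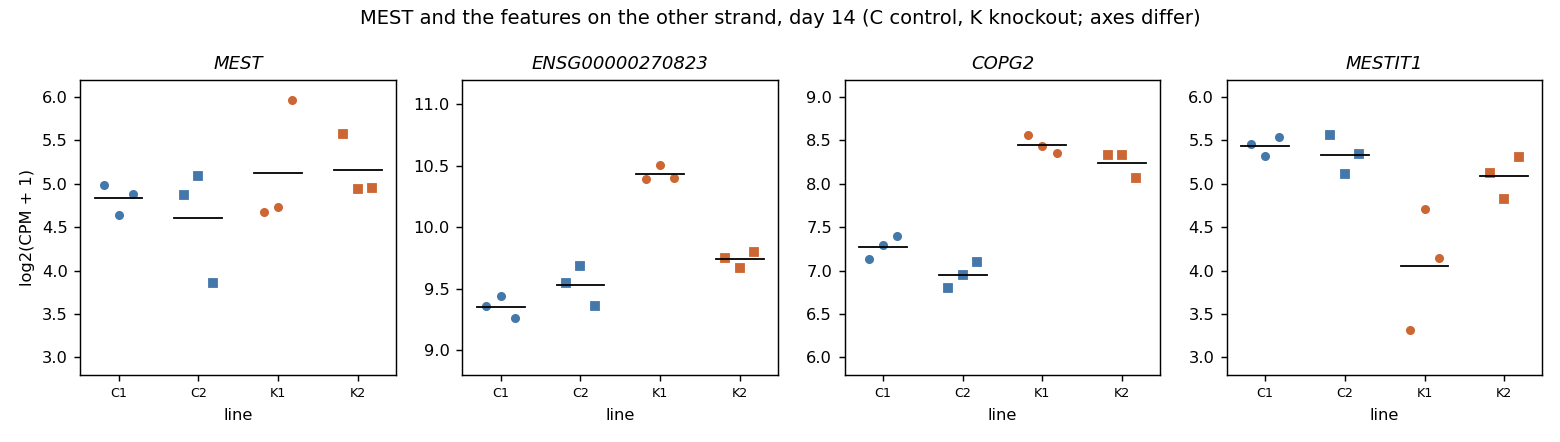
Day 14 level, as log2(CPM + 1), of MEST and of the 3 features with most counts on the other strand, by control line (C1, C2) and knockout line (K1, K2), where each symbol is 1 library, each bar is the mean of 3, and the axes differ between panels. COPG2 is higher in both knockout lines, ENSG00000270823 is highest in knockout line 1, MESTIT1 is lowest in that line, and MEST overlaps between genotypes.

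The same comparison in stem cells at day 0 called none of these genes. SGCE, NNAT, BLCAP and MEST passed the filter there, and 0 of the 4 were called, with 0 at an unadjusted p under 0.05 in edgeR and 0 called by DESeq2. Over all 4832 features tested, 0% passed in edgeR, although 99 had an unadjusted p under 0.05, and in DESeq2 the numbers were 0 and 868. The median of the 4 genes was 0.10 and of all features -0.01.

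SGCE had the most counts at day 0. Control line 1 gave 1554, 813 and 1132, control line 2 gave 1761, 626 and 857, knockout line 1 gave 531, 613 and 1051, and knockout line 2 gave 1526, 1140 and 938. Its levels overlapped between genotypes (log2 fold change -0.32, SE 0.23, edgeR adjusted p = 0.9997). MEST had 14 to 103 counts in control libraries and 34 to 130 in knockout libraries (0.07, SE 0.54), BLCAP 2 to 46 and 9 to 55 (0.13, SE 0.75), and NNAT 0 to 64 and 0 to 63 (0.32, SE 1.04). NNAT was low in replicate B of every line, with 8, 0, 0 and 1 counts against 17 to 64 in replicates A and C, and with a replicate block it was at -0.24 (edgeR adjusted p = 0.998). The interval of 2 SE for NNAT, from -1.75 to 2.39, holds the value seen at day 14. PEG10 had 0 to 15 counts in a library, DLK1 had 2 counts in replicate A of knockout line 2 and 0 elsewhere, and MEG3, IGF2, PEG3 and H19 had 0 in all 12 libraries.

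Differentiation was compared in a fit of all 24 libraries, which share libraries with the comparisons above. In controls DLK1, MEG3, PEG10, NNAT and BLCAP rose from day 0 to day 14, and SGCE and MEST did not pass. Of 7 genes tested 5 were higher and 0 lower, against 28.4% higher and 14.4% lower of all 10971 features, 42.8% in either direction. The median of the 7 was 3.19 and of all features 0.60. Scaling mattered here: with RLE in place of TMM scaling the median over all features was 0.83 in controls and 1.04 in knockouts, so changes are read relative to it. The wrong-strand percent moved with day too. In controls its range was 0.826 to 1.33 at day 0 and 2.12 to 3.04 at day 14, and in knockouts 1.05 to 1.38 and 2.88 to 4.97, without overlap between days. Day and this percent cannot be told apart here, and its part in the rises below was not tested.

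DLK1 went from 0 counts in the 6 control libraries of day 0 to 1017 at day 14, at least 180-fold higher. MEG3 went from 0 to 127, at least 22.5-fold higher, and IGF2, which did not pass the filter of this fit, from 0 to 165, at least 29.2-fold higher. These bounds set 3 counts over the 6 libraries as the floor at day 0, and they take the day 14 counts as exact. Such folds are ratios of CPM pooled over libraries, without the TMM scaling of the fit, so the fitted log2 change is given beside them. Their counting intervals leave out the spread between libraries and lines. PEG10 went from 43 to 1093 counts, a 13.5-fold rise in CPM (95% counting interval 9.95 to 18.8, fitted log2 3.19, SE 0.55, edgeR adjusted p = 2.76e-05). BLCAP went from 139 to 7028, a 26.8-fold rise (22.7 to 32.0, fitted log2 4.19, SE 0.43, edgeR adjusted p = 2.99e-09).

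NNAT went from 150 to 1374 counts in controls, 4.86-fold in CPM (counting interval 4.11 to 5.79). Its fitted log2 fold change of 1.70 (SE 0.69, interval of 2 SE from 0.32 to 3.08) had an edgeR adjusted p of 0.0462, a call lost in 19 of 32 settings. With a replicate block it was 2.18 (edgeR adjusted p = 0.00784). SGCE was at 644 ± 174 CPM at day 0 and 896 ± 50.4 CPM at day 14 in controls (SD, n = 6). Its fitted value was -0.08 (SE 0.22, edgeR adjusted p = 0.799) and 0.16 with RLE scaling, so its direction depended on the scaling. MEST was at 30.6 ± 18.6 and 26.3 ± 6.97 CPM (-0.76, SE 0.43, edgeR adjusted p = 0.162). ENSG00000270823, opposite MEST, rose by 1.18 (SE 0.23, edgeR adjusted p = 0.00015), from 212 ± 45.6 to 697 ± 74.8 CPM (SD, n = 6).

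In knockouts the same 5 genes and SGCE rose, so that 6 of 7 were higher and 0 lower, against 29.8% and 16.5% of all features. The median of the 7 was 4.30 and of all features 0.65. SGCE was at 528 ± 149 CPM at day 0 and 1518 ± 391 CPM at day 14 (SD, n = 6), which the fit put at 1.00 on the log2 scale (SE 0.22, edgeR adjusted p = 0.000457). PEG10 was 34.4-fold higher in pooled CPM (95% counting interval 25.0 to 48.7) with a fitted log2 change of 4.49 (SE 0.58). NNAT was 7.99-fold higher (6.90 to 9.29, fitted 2.33, SE 0.70) and BLCAP 28.2-fold (24.2 to 33.0, fitted 4.30, SE 0.43). The fitted changes of PEG10 and NNAT are smaller than these pooled ratios by over 1.5 times. DLK1 went from 2 to 2216 counts, 652-fold in pooled CPM (180 to 5383) and 8.50 in the fit (log2, SE 0.66), and MEG3 was at least 51.2-fold and IGF2 at least 7.06-fold higher. MEST had -0.38 (SE 0.43, edgeR adjusted p = 0.487).

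Whether the change with differentiation differed between genotypes was tested by the interaction. It called 0 of 7 genes in edgeR, 1 of them at an unadjusted p under 0.05, and 1.47% of all 10971 features (0.565% higher and 0.902% lower), while DESeq2 called 1 of the genes. That gene was SGCE in both, with an interaction of 1.07 (log2, SE 0.31, edgeR adjusted p = 0.0764), a value that passed in 14 of 32 settings. With RLE scaling the median over all features moved from -0.07 to 0.11, and SGCE was called. PEG10 had 1.30 (SE 0.75, edgeR adjusted p = 0.437), and for DLK1 and MEG3 the near absence of counts at day 0 leaves the interaction poorly determined.

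Per kilobase of annotated exon, NNAT, BLCAP and SGCE were the highest of the 10 in day 14 controls, at 52.1 ± 12.0, 47.0 ± 6.39 and 42.9 ± 2.42 CPM per kb (SD, n = 6), levels that overlap among the 3. DLK1 (9.79 ± 1.70), PEG10 (8.21 ± 2.21) and MEST (5.49 ± 1.46) followed, and each overlapped with its neighbour in that order. IGF2 (1.18 ± 0.458) and MEG3 (0.277 ± 0.103) were lower, without overlap between them, and PEG3 (0.0148) and H19 (0) were last. In knockouts the order of SGCE (72.7 ± 18.7) and BLCAP (56.4 ± 10.5), and that of MEG3 (0.607 ± 0.224) and IGF2 (0.272 ± 0.240), was the other way round, with overlap within both pairs. These values use the exons of all annotated transcripts of a gene together, from 1332 bases for NNAT to 23224 for MEG3. They rank counts under a name, which may hold or miss RNA of either strand, so the order need not be that of RNA levels. ENSG00000270823, opposite MEST, was at 265 CPM per kb in day 14 controls.

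Other imprinted genes came from a list of 55, of which 49 are in the tables. At day 14, 20 were tested, 2 were higher in knockouts and 1 lower, against 11.0% higher and 10.7% lower of all features, so neither count was above the background. Their median was 0.50, against 0.07 over all features. MKRN3, a paternally expressed gene of the Prader-Willi region, rose from 3.39 ± 2.19 to 25.0 ± 8.11 CPM (SD, n = 6, log2 fold change 2.86, SE 0.41, edgeR adjusted p = 7.25e-06). GRB10, an adaptor that restrains growth factor receptors, rose from 1.99 ± 1.09 to 6.88 ± 1.79 CPM (1.72, SE 0.54, edgeR adjusted p = 0.0228), and MESTIT1 was the gene that fell. At day 0, 0 of 6 were called by edgeR, with 0 at an unadjusted p under 0.05.

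With differentiation in controls, 8 of 16 tested genes of that list were higher and 3 lower, against 28.4% and 14.4% of all features. The largest rises, PLAGL1 (log2 6.89), KCNQ1 (6.55), DIO3 (6.21), MKRN3 (5.91) and ZNF597 (5.06), started from few or no counts, so the fitted values are no bounds. PLAGL1, a zinc finger gene, and MKRN3 had 0 counts at day 0 in all 12 libraries. GNAS-AS1, the antisense RNA of the GNAS cluster, fell by 5.27 (log2, SE 0.63, edgeR adjusted p = 2.12e-07), from 243 ± 162 to 9.50 ± 5.42 CPM, and GNAS itself, the stimulatory G protein subunit, named here after its values were seen, rose to 269 ± 88.1 CPM (SD, n = 6, log2 fold change 4.23, edgeR adjusted p = 1.15e-09). IGF2R (-1.44) and SNHG14 (-1.20), the long host transcript of the Prader-Willi region, also fell. The median of the 16 was 1.92. In knockouts 6 of 16 were higher and 2 lower, against 29.8% and 16.5% of all features, with a median of 1.33. There the largest values were MKRN3 (8.77), DIO3 (7.04), PLAGL1 (6.71), GNAS (4.34) and UBE3A (2.66), with GNAS-AS1 at -5.85 and SNHG14 at -1.35. GNAS and GNAS-AS1 overlap on opposite strands, so reads of 1 may be counted under the other.

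Of 23 factors that set or maintain imprints, 11 were tested at day 14, and 1 was higher in knockouts and 0 lower, which is no more than the 11.0% and 10.7% of all features. Their median was 0.39. The 1 gene was SMCHD1, a chromatin protein of imprinted clusters and the inactive X chromosome, at 3.55 ± 1.16 and 10.7 ± 5.75 CPM (SD, n = 6, log2 fold change 1.56, SE 0.44, edgeR adjusted p = 0.0106). With differentiation in controls, against the same background of 28.4% higher and 14.4% lower, 1 of 14 was higher, the demethylating enzyme TET1 (2.46, edgeR adjusted p = 0.0403). DNMT3B, a DNA methyltransferase of stem cells (-2.65, 0.0029), and NLRP7, a maternal-effect gene of the egg (-3.01, 0.0386), were lower. In knockouts, against 29.8% and 16.5%, 4 of 14 were higher, led by TET2 (2.95) and ZNF202 (2.74), and DNMT3B was lower (-2.28). The medians of the 14 were 1.12 in controls and 0.75 in knockouts, against 0.60 and 0.65 over all features.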

How the data were processed

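Poly(A) RNA was made into Click-Seq libraries, per the labels' protocols. The deposited files hold raw read counts per gene that the authors made, with 1 table for each of 24 libraries and no scaling. The submitters' processing notes name bcl2fastq 2.20.0, STAR 2.7.9a, GRCh38, featureCounts of Subread 2.0.1, DESeq2 1.34.0 and R 3.5.1; for the annotation release and the strand setting, nothing is given in the sources used here. Positions were matched by name to GENCODE release 29.

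Knockout and control were compared within each day (6 libraries against 6), and the days and the interaction in 1 fit of 24 libraries, by quasi-likelihood F tests in edgeR 4.0.16 and R 4.3.3 (TMM scaling, filterByExpr, robust fits). The threshold was an adjusted p (Benjamini-Hochberg, over all features tested) under 0.05, and SE is the log2 fold change over the root of F. Ratios of neighbouring genes used log2(count + 1) and exact permutation over 924 arrangements. All permutations here take the 3 libraries of a line as separate samples. The smallest chi-square per degree of freedom between replicates of a line was 5.46, so none was counted as a repeat of another. The fits were tested on simulated data with known changes. CPM is counts per 1000000 counts of a library.

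Named genes are the 10 members, overlapping features with at least 10 counts, up to 5 called genes in each direction of the other imprinted genes and 3 of the maintenance factors, and the 3 features most like each of the 3 members highest in CPM, among features of at least 20 CPM. The members and lists were chosen with earlier results of these data known. As alternatives, RLE scaling, DESeq2 1.42.0, a replicate block, no filter, 1 group per line, counts summed per line, all 24 libraries in 1 fit, the wrong-strand percent as covariate, and leaving out each line, each library and the 9 features above 1 percent of counts were tried. P-values measure the spread between these libraries.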

Additional observations from a re-analysis of the deposited data

Results flagged for a closer look

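Of 54 groups of 6 libraries checked for 1 that stands apart, 8 had such a library. How many chance would flag was not tested, and a group with counts in a single library is always flagged. Among the genes of the set, replicate A of control line 1 had the highest MEG3 of day 14 controls, 11.1 CPM against 6.29 for the next. Replicate C of control line 2 had the lowest PEG10 of those controls, 26.9 CPM against 57.3, and is also the shallowest library of that day and the lowest in wrong-strand percent. PEG3 reached 2.60 CPM in 1 knockout library of day 14, where the next had 0.7.

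The other libraries that stood apart did so in features beside the set, at low counts. MIR493HG had 6.32 CPM in 1 day 0 knockout library and 0 in the others. CASD1, opposite SGCE, reached 2.24 CPM in a day 14 control library, and ENSG00000278055, within MEST, 3.65 CPM in a day 14 knockout library. ENSG00000274866, opposite H19, had counts in a single control library of each day, at 4.15 CPM on day 0 and 1.36 CPM on day 14.

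The knockout lines differed from each other at day 14 in SGCE, lower in line 2 by -0.691 on the log2 scale (edgeR adjusted p = 0.00925), and in ENSG00000270823 by -0.742 (adjusted p = 0.00272).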

How the results depend on the processing

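The call of each of the 5 rises and of the fall in knockouts at day 14 was made with DESeq2, RLE scaling, a replicate block and 1 group per line. MEG3 was not called without a filter on low counts, without control line 1 (nor was IGF2), control line 2 or knockout line 2, or with counts summed per line (nor was SGCE). The cause of each change was not tested. All 24 libraries in 1 fit gave a larger estimate of spread, and IGF2 did not pass the filter of that fit. There 0 of the 7 genes tested were called, with 241 features called at day 14 and 116 at day 0. With wrong-strand percent added as a covariate 1457 features were called and MEST was at -0.14. With its stricter form, chosen after seeing the data, 3 genes of the set (SGCE, BLCAP and IGF2) and 1109 features were called and MEST was at -0.43. With the 4 knockout libraries above all controls in the first percent left out, also chosen after seeing the data, MEST was at -0.019.

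Of the lines left out in turn, the features called at day 14 were 1552 without control line 1 and 1266 without control line 2, where MIR493HG was at 0.026. Without knockout line 1 BLCAP was at -0.020 and MIR493HG at 0.16. At day 0, where 0 features were called with all lines, 1 was called without control line 1, where BLCAP was at -0.021 and MEST at -0.083. BLCAP was at -0.68 and MEST at -0.21 without knockout line 2, and BLCAP at -0.014 with 1 group per line. Counts summed per line called 1 feature at day 0, and the fit without a filter 13, with 1 of the other imprinted genes.

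DESeq2 called 5 other imprinted genes in knockouts at day 14. With differentiation it called 7288 features in controls and 8947 in knockouts, with 17 and 20 other imprinted genes, and SGCE was at 0.16 in controls, as with RLE scaling. Without a filter SGCE was at 0.017, 17 other imprinted genes were called in controls and 17 in knockouts, and 8739 features in knockouts. Without control line 1 SGCE was at 0.10, and without control line 2 the features called in controls were 2926.

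For the interaction, DESeq2 called 549 features and the fit without a filter 792, with 3 other imprinted genes. The count of called features was 40 without control line 1, 16 without control line 2, 23 without knockout line 1 and 58 without knockout line 2. Of the 10 genes, 1 was called, SGCE, with DESeq2, RLE scaling, no filter and without knockout line 2. DLK1 was at 0.49 with DESeq2 and 1.00 without knockout line 2, and BLCAP at -0.68 without knockout line 1. Between lines, DESeq2 called 338 features in day 14 knockouts, 12 in day 0 controls and 2 in day 0 knockouts, and without a filter 42 were called in day 14 controls, 9 in day 0 controls and 4 in day 0 knockouts.

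The labels give libraries of different lines the same replicate letters without saying what a letter shares. Deviations of same-letter libraries from their line means correlated at -0.223 to 0.133 at day 14 (mean -0.0212), but at 0.0849 to 0.296 at day 0, where all 18 pairs were positive (mean 0.158, against -0.0788 for other letters), a hint from the data that letters share something there. With the replicate block 6 genes of the set and 2256 features were called at day 14, MESTIT1 had an adjusted p of 0.0541, NNAT at day 0 was at -0.24 and NNAT with differentiation in controls had an adjusted p of 0.00784. Besides MESTIT1, the block changed no call among the set and the features overlapping it. The ratio of PEG10 to SGCE at day 0 was -0.25 (log2) and 0.039 with a pseudocount of 5.

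Leaving out 1 library at a time gave 5 to 6 called genes of the set at day 14. The interaction ranged from 91 to 259 features and from 0 to 1 genes of the set, and the line comparisons from 10 to 25 features (day 14 controls), 0 to 1 (day 0 controls) and 109 to 289 (day 14 knockouts, with 0 to 2 genes of the set). The ratios ranged from 0.54 to 0.93 (NNAT to BLCAP, day 14), -1.12 to 0.33 (day 0), -0.58 to 0.095 (PEG10 to SGCE, day 0) and -0.052 to 0.19 (DLK1 to MEG3, day 14). Values that changed sign, none of them called, ranged from -0.094 to 0.068 for MIR493HG at day 14, and at day 0 from -0.28 to 0.38 for BLCAP, -0.32 to 0.43 for MEST and -0.14 to 1.02 for NNAT. With differentiation SGCE ranged from -0.19 to 0.057 in controls and MEST from -0.51 to 0.014 in knockouts, and the interaction from -0.14 to 0.48 for BLCAP and -1.60 to 1.15 for DLK1. At 1407832 to 2143871 counts, day 0 could not test 6 of the 10 genes.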
